A study of Danio rerio with 9 samples.

Results

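The circular RNAs (circRNAs) described here were well covered in zebrafish caudal fin. Their observed mean share of the circRNA reads lay near the intact mean in both regenerating groups. They numbered 78 of the 5578 circRNAs of the table. A member averaged at least 10 reads per library over the 9 libraries, and its mean level in both regenerating groups lay within 0.7 on the log2 scale of its mean in intact fins, a ratio of 1.62 at most. The first condition was met by 185 circRNAs, so 107 well-covered circRNAs fell outside the ratio limits. All 78 members were measured in every library, with at least 2 reads each. All fish were wild-type zebrafish kept in a recirculating system, per the labels. The groups were intact caudal fin (CK0dpa), the fin regenerating for 3 days after its removal (T3dpa, 3 dpa) and the fin regenerating for 7 days (T7dpa, 7 dpa), each with 3 libraries of total RNA. The sources used here give neither the fishes' age and strain nor how many fish went into a library, so a p-value here refers to the spread between the libraries alone, which may be technical.

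A circRNA forms when the spliceosome joins the end of an exon back to the start of the same or an earlier exon, which leaves a closed ring. Having no free ends, such rings resist exonucleases and turn over slowly in many cells, whereas the linear RNA of the same gene can change quickly. A caudal fin that has lost its tip covers the wound with epidermis, builds a blastema of dividing cells and then lays down bone rays, vessels and nerves again. The circRNAs are numbered, not named, in the deposited table. None of the 5578 IDs matched the name tables used (0 of 5578), so their host genes could not be set beside them, and no sequence of a member is shown. Fin marker genes were not examined, and the mRNA table was not used here.

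Values are reads per 1000000 circRNA reads of a library (RPM), and 1 read was worth 61.5 to 82.9 RPM. The libraries held 14631 to 16262 circRNA reads in intact fins, 12070 to 13443 at 3 dpa and 12427 to 13507 at 7 dpa. An RPM value is thus a share, and a change in the total amount of circRNA would not show in it. In bulk tissue, fewer cells of a type and less of an RNA per cell cannot be told apart.

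At 3 dpa the ratios of group means that chose the members spread over nearly the whole width allowed. At 7 dpa they lay nearer to 0. The ratio at 3 dpa over intact fin had a median of 0.21 on the log2 scale (quartiles -0.24 and 0.43) and ran from -0.70 to 0.66. That at 7 dpa had a median of 0.02 (quartiles -0.14 and 0.23) and ran from -0.47 to 0.64. Both ratios lay above 0 in 27 members and below 0 in 17, while 21 members were above intact fin at 3 dpa and below it at 7 dpa and 13 the other way round. Only 8 members had both ratios within 0.2 of 0, and 25 had a ratio beyond 0.5 in size. Across the 2554 tested circRNAs with reads in both groups the median ratio was -0.18 at 3 dpa, and across 2782 it was 0.03 at 7 dpa. Most of these had far fewer reads than the members. Across all 185 well-covered circRNAs, members included, the medians were 0.16 and 0.03. The 107 others alone, which the rule places outside its limits, had medians of -0.72 and 0.06.

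**Figure D1:**
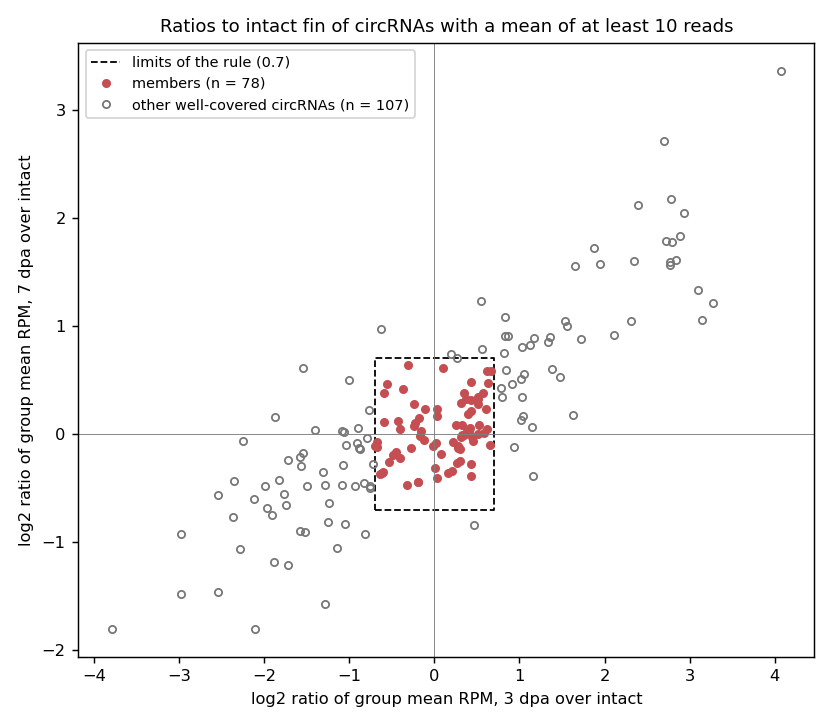
Each point is 1 of the 185 well-covered circRNAs, placed by its log2 ratio of group mean RPM at 3 dpa over intact fin (horizontal) and 7 dpa over intact fin (vertical). The 78 members lie inside the dashed square of the 0.7 limits, with none below -0.47 at 7 dpa. The 107 other circRNAs lie outside it, some of them close to the border.

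Most circRNAs that missed the ratio limits did so at 3 dpa. Of the 107, 52 lay outside at 3 dpa alone, 6 at 7 dpa alone and 49 at both times, with 47 above and 54 below the limits at 3 dpa. No gap in values separated members from the rest. The members nearest inside the limit were novel_circ_001669, novel_circ_002340 and novel_circ_004094, with log2 ratios at 3 dpa of -0.70, -0.68 and -0.67, and novel_circ_000682 and novel_circ_001359 with 0.66 and 0.65. Nearest outside were novel_circ_000577 with a ratio of 0.70 at 7 dpa, novel_circ_004219 with -0.72 at 3 dpa and novel_circ_000479 with 0.74 at 7 dpa, followed by novel_circ_004291 and novel_circ_004293, both at -0.75 at 3 dpa. At the coverage limit, novel_circ_001217 and novel_circ_002138 averaged 10.1 reads and novel_circ_001210 10.3 reads, while novel_circ_004594, novel_circ_005395 and novel_circ_004880 met the ratio limits with 9.67, 9.56 and 9.33 reads. In all, 372 circRNAs below the coverage limit had both ratios inside.

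The members held a large part of all circRNA reads. Their summed share of reads averaged 28.9% ± 2.32 in the intact, 29.7% ± 0.567 in the 3 dpa and 29.3% ± 1.46 in the 7 dpa libraries (SD, n = 3 each), with single libraries between 26.8% and 31.4%. The rule holds the observed group means of each member near its intact mean, so this flat sum is a description only. The 107 other well-covered circRNAs held 21.5% ± 0.994, 29.9% ± 1.34 and 24.9% ± 0.799 of the reads at the same times, and the circRNAs under 10 reads held 49.6% ± 2.28, 40.4% ± 0.791 and 45.8% ± 0.843. Among the 10 circRNAs with the most reads in a library, 8, 8 and 9 were members in the intact libraries, 3, 5 and 4 in those of 3 dpa and 7, 7 and 6 in those of 7 dpa. At 3 dpa the places at the top were thus more often held by other circRNAs. The rule keeps out any circRNA that rose beyond its limits, so these counts too are a description only.

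Abundance was concentrated in few members. The 12 most abundant held 16.0% of all circRNA reads, which was 54.5% of the reads of all members, and the member at the middle of the list averaged 21.4 reads per library. A mean of at least 50 reads was reached by 20 members, 20 to under 50 reads by 24 and 10 to under 20 reads by 34.

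novel_circ_002328 was the most abundant circRNA of the whole table. It had 37323, 41938 and 31167 RPM in intact fins, 44639, 19862 and 28998 RPM at 3 dpa and 34427, 35028 and 47075 RPM at 7 dpa. It ranked first in 8 libraries and was below the top only in replicate 2 of 3 dpa, where its value was its lowest. The 3 groups overlapped, and the libraries of 3 dpa alone spanned nearly the range of all 9.

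novel_circ_001065, second in abundance, was the most even of all members. It had 19137, 16480 and 20436 RPM in intact fins, 19974, 19862 and 19553 RPM at 3 dpa and 16658, 17868 and 14726 RPM at 7 dpa. The 3 dpa libraries lay within a narrow band, and all 7 dpa libraries lay below all those of 3 dpa while overlapping with intact fin. Its within-group SD was 0.12 on the log2 scale, the smallest of the 78.

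novel_circ_001678 had both ratios nearest to 0, at 0.02 at 3 dpa and -0.08 at 7 dpa. Its values were 7541, 9531 and 10936 RPM in intact fins, 10270, 9150 and 8948 RPM at 3 dpa and 9180, 10312 and 6920 RPM at 7 dpa. All groups overlapped. The next nearest to 0 were novel_circ_001692, novel_circ_005575, novel_circ_001358 and novel_circ_000226, which averaged only 12.1 to 14.8 reads per library, so their closeness to 0 rests on few reads.

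novel_circ_001669 was a member by a narrow margin and was uneven. It had 13497, 9347 and 20914 RPM in intact fins, 9785, 7364 and 9859 RPM at 3 dpa and 9847, 14090 and 16496 RPM at 7 dpa. The 3 dpa libraries were low, but replicate 2 of intact fin was as low as they were, so the groups overlapped.

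The remaining members among the 12 most abundant ranged from 7373 to 12987 RPM in their mean over all libraries. novel_circ_001348, novel_circ_001346, novel_circ_001294, novel_circ_001270 and novel_circ_001785 had group mean ratios of 0.22 to 0.43 (log2) at 3 dpa over intact fin. novel_circ_001346 had 7604, 11192 and 11824 RPM in intact fins, 13505, 11679 and 14996 RPM at 3 dpa and 8440, 15822 and 10542 RPM at 7 dpa. Its lowest 3 dpa library was below the highest intact one, and the 7 dpa libraries spread over both.

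novel_circ_001294 had 9062, 8056 and 10799 RPM in intact fins, 10027, 12125 and 13339 RPM at 3 dpa and 7255, 11335 and 9174 RPM at 7 dpa. novel_circ_001270 had 6083, 6518 and 8133 RPM in intact fins, 9300, 7290 and 8202 RPM at 3 dpa and 6145, 10469 and 5311 RPM at 7 dpa. In both, replicate 2 of 7 dpa stood well above the other 7 dpa libraries, and the groups overlapped. novel_circ_001785 had 6970, 6395 and 7928 RPM in intact fins, 10836, 5579 and 8368 RPM at 3 dpa and 7404, 7084 and 5794 RPM at 7 dpa, so its 3 dpa group held both the highest and the lowest library.

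novel_circ_002690 had log2 ratios of opposite sign, -0.18 at 3 dpa and 0.15 at 7 dpa over intact fin. It had 8301, 12729 and 9159 RPM in intact fins, 8087, 8927 and 9611 RPM at 3 dpa and 9921, 13460 and 10139 RPM at 7 dpa. All its 7 dpa libraries lay above those of 3 dpa, and intact fin overlapped with both. novel_circ_004292 and novel_circ_004294 belong to the uneven ones and are given with their near-identical reads further on.

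**Figure D2:**
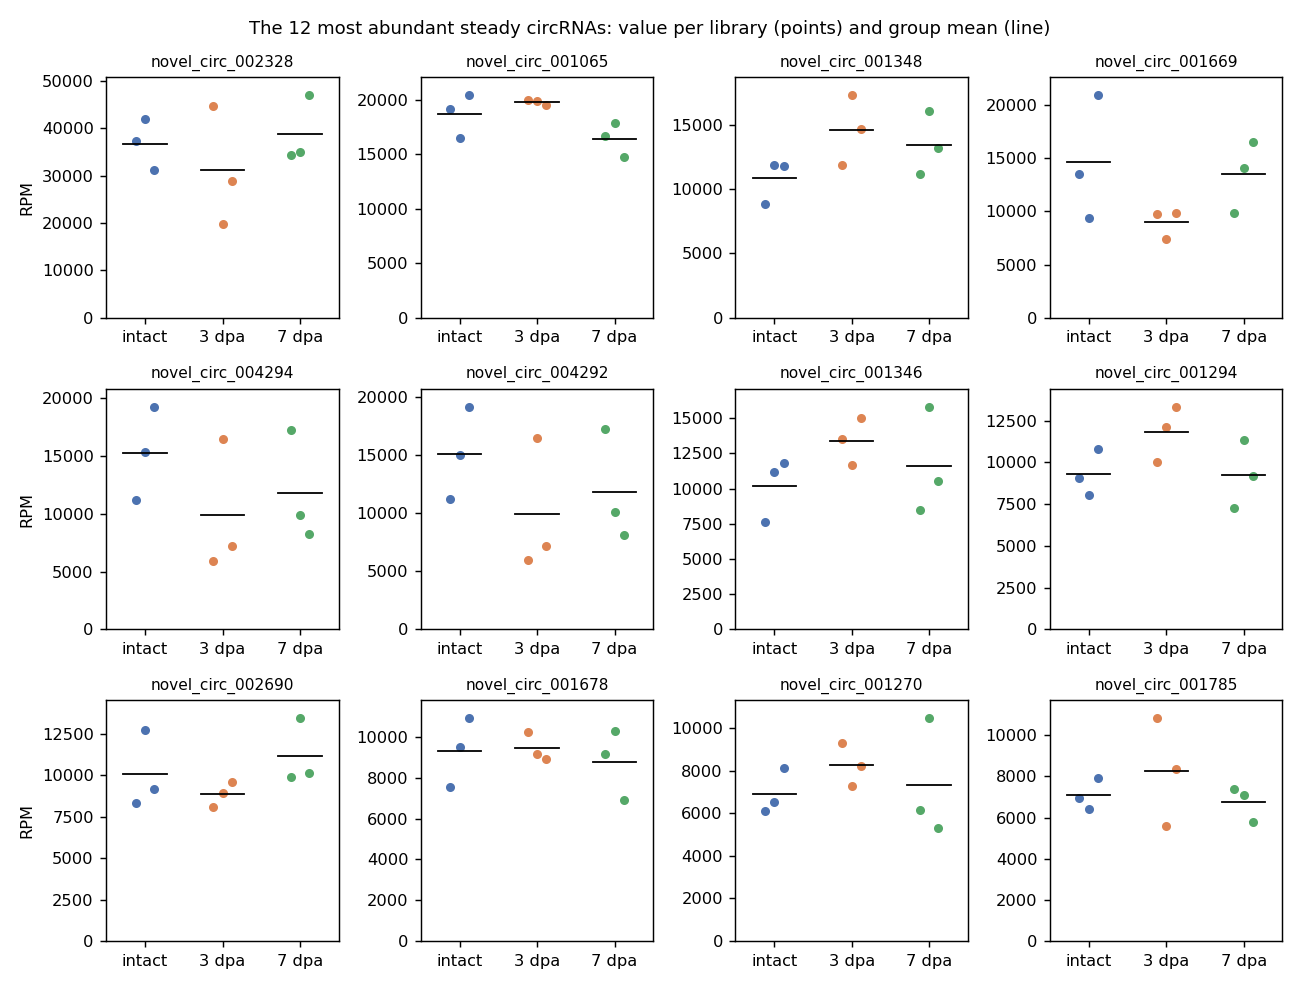
Each panel shows 1 of the 12 most abundant members with its RPM on a vertical axis that starts at 0, with a point for each of the 3 libraries of intact fin, 3 dpa and 7 dpa and a line at the group mean. The points of novel_circ_001065 at 3 dpa lie close together (19553 to 19974 RPM), while those of novel_circ_002328 (19862 to 44639 RPM) and novel_circ_004292 (5984 to 16514 RPM) spread widely.

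The spread between replicate libraries was not used by the rule, although a wide spread also moves group means. The within-group SD of log2(RPM + 1) had a median of 0.39 over the members (quartiles 0.30 and 0.53), against 0.53 (0.41 and 0.75) over the other well-covered circRNAs and 3.23 over all 3213 tested circRNAs, most of which were at 0 in some libraries. At like coverage the members' medians were 0.51, 0.37 and 0.25 for 10 to under 20, 20 to under 50 and at least 50 reads, and those of the other circRNAs 0.60, 0.50 and 0.47. These are descriptions without a test, and the other circRNAs include some with few reads in 1 group. Within a group, the RPM ratio of the highest to the lowest replicate had a median over the members of 1.46 for the intact, 1.63 for the 3 dpa and 1.59 for the 7 dpa group. It reached at least 2 in some group for 41 members and at least 3 for 12.

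The spread of the low members was nearer to counting error than that of the abundant ones. The variance of reads between replicates was divided by the variance that counting gives, so that 1 stands for counting alone. This quotient had a median of 1.99 over the members and 2.29 over the other well-covered circRNAs, against 1.28 over all tested. It was 1.32, 1.92 and 3.82 in the 3 bands of members from low to high coverage. It exceeded 1 in 64 members and 2 in 39, and it was highest for novel_circ_002328 at 31.3. For the most abundant circRNA the difference between replicate fins or libraries thus exceeded counting error by far, while for novel_circ_001065 the quotient was 1.79.

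**Figure D3:**
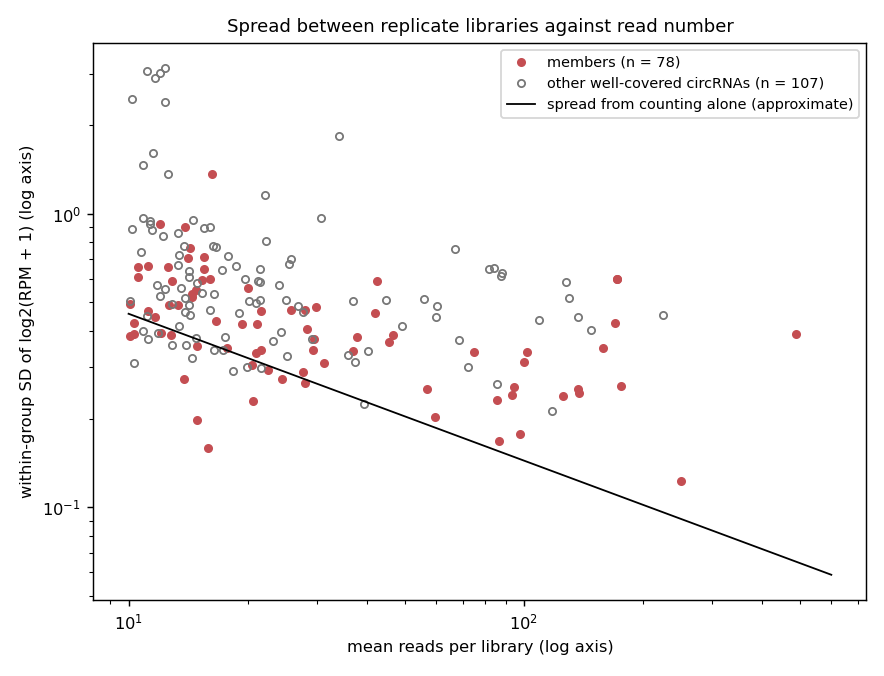
Each point is 1 of the 185 well-covered circRNAs, placed by mean reads per library (log axis) and the within-group SD of log2(RPM + 1) (log axis), with a line for the spread that counting alone gives. The points fall with coverage less steeply than the line does, with novel_circ_002328 at the far right at an SD of 0.39.

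The smallest within-group SDs after novel_circ_001065 belonged to novel_circ_001252 (0.16), novel_circ_001276 (0.17), novel_circ_000682 (0.18) and novel_circ_001360 (0.20). For novel_circ_001252 and novel_circ_001360 the quotient to counting error was 0.17 and 0.29, which is less spread than independent reads would show on average. novel_circ_001276 had 5957, 4981 and 7313 RPM in intact fins, 7116, 7216 and 7788 RPM at 3 dpa and 5627, 5431 and 5874 RPM at 7 dpa. The 7 dpa libraries of novel_circ_001276 lay below those of 3 dpa, and both overlapped with intact fin.

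novel_circ_002340, at the lower edge, was unlike novel_circ_001669 in that its 3 dpa and intact libraries did not overlap. It had 3675, 3567 and 4511 RPM in intact fins, 2022, 2827 and 2486 RPM at 3 dpa and 5108, 3778 and 2253 RPM at 7 dpa. All 3 dpa libraries were below the intact ones, while those of 7 dpa reached from the 3 dpa to above the intact level.

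At the other end of the range of within-group SDs stood novel_circ_004189 (within-group SD 1.36), novel_circ_004094 (0.93), novel_circ_004190 (0.90), novel_circ_002835 (0.77) and novel_circ_002522 (0.71). novel_circ_004189 had 20, 13 and 21 reads in intact fins, 19, 9 and 2 reads at 3 dpa and 23, 4 and 35 reads at 7 dpa. Within 3 dpa its highest replicate was 9.27-fold above its lowest in RPM, and within 7 dpa 8.95-fold. novel_circ_004190, the next number in the table, had 16, 9 and 22 reads in intact fins, 13, 10 and 3 reads at 3 dpa and 27, 8 and 17 reads at 7 dpa. Both were low in replicate 3 of 3 dpa and in replicate 2 of 7 dpa. They qualified through group means that averaged over unlike replicates.

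Some of these members also had the largest ratios between the regenerating groups. The log2 ratio of group mean RPM at 7 dpa over 3 dpa, which the rule bounds through both other ratios, had a median of -0.15 over the members. It was 1.03 for novel_circ_004189, 0.97 for novel_circ_004190, 0.95 for novel_circ_002276, 0.78 for novel_circ_002835 and -0.82 for novel_circ_001278. novel_circ_002276 had 2091, 861 and 957 RPM in intact fins, 970, 1190 and 994 RPM at 3 dpa and 2887, 1181 and 2012 RPM at 7 dpa, so the regenerating groups overlapped narrowly. novel_circ_001278 had 1964, 1845 and 2392 RPM in intact fins, 2426, 3124 and 2817 RPM at 3 dpa and 1333, 2283 and 1127 RPM at 7 dpa, where all 3 dpa libraries lay above those of both other groups.

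The replicates resolved a level within 2-fold of intact fin for a minority of the members. In a limma fit over the 185 well-covered circRNAs, the log2 difference to intact fin of a member had a median standard error of 0.36, and its 95% interval reached a median of 0.74 to either side. The interval lay inside 2-fold either way for 21 members at 3 dpa, 36 at 7 dpa and 15 at both times. Of these 15, 13 were among the 20 members with at least 50 reads, 2 among the 24 with 20 to under 50 reads and 0 among the 34 with fewer. Inside the 0.7 limits at both times lay the intervals of 2 members. Since the members were chosen by their means in the same libraries, these intervals describe precision and are no test of steadiness. The label steady thus covers the observed means of the members, in every band of coverage, and not a level shown to lie near that of intact fin.

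**Figure D4:**
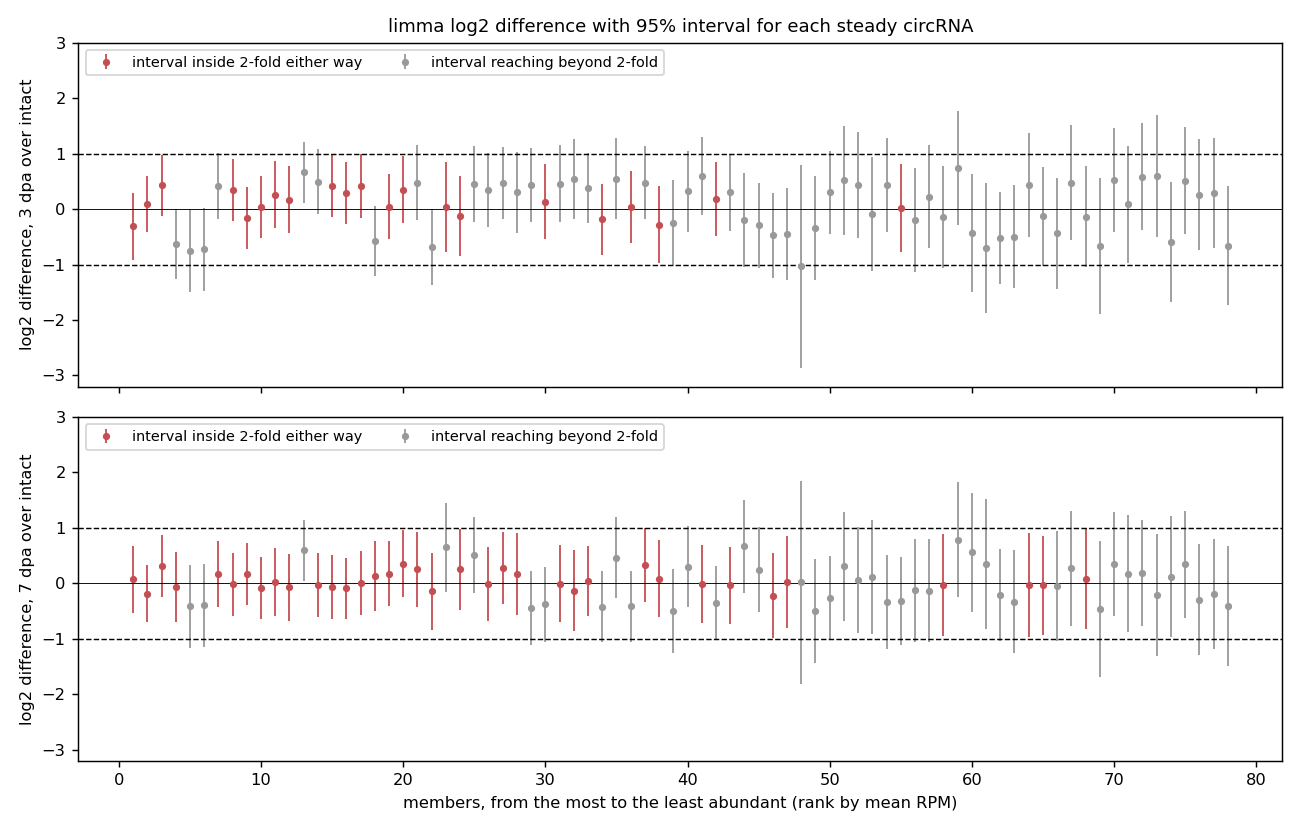
For each of the 78 members, ordered from the most to the least abundant, the limma log2 difference with its 95% interval is shown at 3 dpa over intact fin (upper panel) and 7 dpa over intact fin (lower panel), with dashed lines at 2-fold. Intervals inside the lines (21 at 3 dpa, 36 at 7 dpa) lie mostly at the abundant end, and the widest, of novel_circ_004189, is that of the member with the largest within-group SD.

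Membership itself moved with single libraries. When the rule was applied with 1 library left out, it found 71 to 80 circRNAs, of which 62 to 78 were among the 78. The fewest shared were found without replicate 2 of intact fin and the most without replicate 3 of 7 dpa. In all 9 such sets 43 members were found again, 15 of the 20 with at least 50 reads, 12 of the 24 with 20 to under 50 and 16 of the 34 with fewer.

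The calls of members in the fit over the whole table are given as counts and without p-values, since the rule had already bounded its contrasts. At 3 dpa against intact fin, limma (Benjamini-Hochberg adjusted p under 0.05) called 2 of the 78 members higher and 0 lower. Of all tested circRNAs it called 2.49% (1.37% higher and 1.12% lower). At 7 dpa against intact fin it called 1 of 78 members higher and 0 lower, where 0.56% were called (0.467% higher and 0.0934% lower). At 7 dpa against 3 dpa it called 1 of 78 higher and 0 lower, where 0.373% were called (0.218% higher and 0.156% lower). Most tested circRNAs had far fewer reads than the members, with a median of 1.22 mean reads per library. In the limma fit over the 185 well-covered circRNAs, 61, 15 and 25 were called in the 3 comparisons, with 0 members each time. In the fit over the whole table, 10, 3 and 15 of the 78 members had an unadjusted p under 0.05, where 14.2%, 7.41% and 7.56% of all tested circRNAs had. edgeR on the recovered reads called 0 members in each comparison, where 3.08%, 0.467% and 0.498% of the 3213 tested circRNAs were called. Its counts at an unadjusted p under 0.05 were 6, 2 and 7 members, where 15.6%, 8.62% and 7.53% of all were. DESeq2 also called 0 members. It gave an adjusted p to only 971, 286 and 286 circRNAs, all members among them, and called 4.43%, 3.85% and 3.85% of these, so its shares cannot be set beside the others. At an unadjusted p under 0.05 it had 2, 0 and 3 members, where 6.07%, 2.52% and 2.21% of the 3213 were. Groups that did not overlap were found in 12 members at 3 dpa against intact fin, where 19.1% of tested circRNAs had them, in 3 at 7 dpa against intact fin (12.1%) and in 9 at 7 dpa against 3 dpa (9.31%). Nothing is read from these counts, since the rule used the same means.

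novel_circ_000682 was called higher at both times by limma. It had 4562, 6272 and 5263 RPM in intact fins, 9704, 7364 and 8368 RPM at 3 dpa and 7848, 7950 and 8288 RPM at 7 dpa. All libraries of both regenerating groups lay above all intact ones, and the log2 ratios of group means were 0.66 and 0.58, just within the limits. The limma call at 3 dpa was lost without replicate 1 of intact fin or of 3 dpa, and that at 7 dpa without any 1 library other than replicate 2 of intact fin. After quantile normalization neither call remained, and the log2 difference at 3 dpa was 0.10 in place of 0.66. With replicate numbers as a block the call at 7 dpa was lost. Of 19 alternatives, the call at 3 dpa held in 10 and that at 7 dpa in 2.

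novel_circ_001348 was called higher at 3 dpa. It had 8871, 11868 and 11824 RPM in intact fins, 11887, 17332 and 14664 RPM at 3 dpa and 11179, 16058 and 13197 RPM at 7 dpa. The lowest 3 dpa library was only just above the highest intact one, and the 7 dpa libraries overlapped with both groups. Its limma call held only without replicate 2 of intact fin, replicate 1 of 3 dpa or replicate 3 of 7 dpa among the sets with 1 library left out. After quantile normalization its log2 difference turned to -0.09, against 0.43 without it, and the call was lost with replicate numbers as a block. Of 19 alternatives, the call held in 4.

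A pair of members had near-identical reads in every library. novel_circ_004292 had 177, 244 and 281 reads in intact fins, 74, 222 and 87 reads at 3 dpa and 233, 128 and 101 reads at 7 dpa. novel_circ_004294 had 177, 250 and 282 reads in intact fins, 73, 221 and 87 reads at 3 dpa and 233, 126 and 102 reads at 7 dpa. They differed by at most 6 reads in any library, although each varied widely over the libraries. The squared read difference divided by the read sum, added over the 9 libraries, was 0.10 for this pair, where independent counts at the same rate would give about 9. Over the 17020 pairs of well-covered circRNAs this statistic was under 1 for 3 pairs, of which 1 had both partners among the members, and the next smallest was 1.43.

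The other 2 pairs were novel_circ_001965 with novel_circ_001966, which had log2 ratios of group mean RPM of 2.76 and 2.77 at 3 dpa and so were no members, and novel_circ_004291 with novel_circ_004293. The run of 4 numbers that begins with novel_circ_004291 thus held a pair just inside the ratio limit and a pair just outside it. novel_circ_004291 had 4753, 8855 and 9159 RPM in intact fins, 3073, 8034 and 2403 RPM at 3 dpa and 6811, 5116 and 4184 RPM at 7 dpa. Like the pair of members, it was high in replicate 2 of 3 dpa and low in both other replicates. Within groups the deviations of novel_circ_004291 and novel_circ_004292 correlated at r = 0.91 over the 9 libraries, which share their depth. With novel_circ_004294 left out, 77 members held 27.4%, 28.7% and 28.1% of the reads of the intact, 3 dpa and 7 dpa groups.

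Some other members with neighbouring numbers also varied together, and some did not. Among the 3003 pairs of members the correlation of within-group deviations over the 9 libraries had a median of 0.04, and among the 28 pairs with numbers at most 5 apart it had a median of 0.40. It was above 0.8 in 75 of the 3003 and in 7 of the 28, the near-identical pair included. It was below 0 in 1418 of the 3003, down to -0.99, and in 5 of the 28. The lowest among the 28 were -0.71 for novel_circ_001212 and novel_circ_001217 and -0.59 for novel_circ_001462 and novel_circ_001465. novel_circ_002329 and novel_circ_002330 reached 0.98, with 18, 26 and 21 against 17, 25 and 19 reads in intact fins, 18, 10 and 16 against 15, 8 and 14 reads at 3 dpa and 23, 15 and 27 against 17, 13 and 22 reads at 7 dpa. Their deviations correlated at 0.76 and 0.81 with those of novel_circ_002328, the leading circRNA, which had 4391 reads over all libraries against their 174 and 150. All 3 were lowest in replicate 2 of 3 dpa. The sources used here do not give what the order of the numbers stands for, and whether neighbours share a gene or reads was not tested.

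Many members had numbers close to each other. Of the 200 circRNAs numbered 1201 to 1400, which make up 3.59% of the table, 26 were members, or 33.3% of all members, and 2 were other well-covered circRNAs, or 1.87% of those. Put the other way, 92.9% of the 28 well-covered circRNAs of the run were members, against 33.1% of the 157 outside it. The run was chosen after its values were seen, and its members have numbers from 1210 to 1376.

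Most members of the run had a ratio above 0 at 3 dpa. Their log2 ratio at 3 dpa had a median of 0.35 and was above 0 in 23 of 26, against a median of -0.07 and 25 of 52 for members outside the run. At 7 dpa the medians were 0.02 and 0.003. The rule used these same ratios and the run was chosen after its values were seen, so this comparison is a description only. Nor can the entries be taken as independent, since member pairs at most 5 numbers apart had a median correlation of 0.40. The run's members together held 7.27%, 7.48% and 8.85% of circRNA reads in the intact libraries, 8.81%, 10.5% and 10.8% in those of 3 dpa and 7.10%, 10.3% and 7.53% in those of 7 dpa. The groups overlapped, since replicate 1 of 3 dpa was below replicate 3 of intact fin.

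The 172 circRNAs of the run under 10 reads, which the rule did not admit, held 2.33%, 1.91% and 2.35% of the reads in the intact libraries, 2.13%, 2.95% and 2.79% in those of 3 dpa and 1.92%, 2.63% and 2.02% in those of 7 dpa. The groups overlapped. The log2 ratio of their mean shares was 0.26 at 3 dpa, while that of the 5221 low circRNAs outside the run was -0.33. Replicate 2 of 7 dpa was the highest of its group both for the run's members and for its low circRNAs.

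Among the run's members, novel_circ_001279, chosen after its values were seen, had 6793, 8331 and 7374 RPM at 3 dpa, against 5323, 5042 and 6630 RPM in intact fins. All its 3 dpa libraries lay above the intact ones. novel_circ_001359, at the edge of the limit, had 1860, 2083 and 4474 RPM at 3 dpa, against 1648, 1722 and 1982 RPM in intact fins, so its high group mean rested on replicate 3 of 3 dpa. novel_circ_001360, the next number, had 1294, 1041 and 1160 RPM at 3 dpa, against 1331, 1045 and 1094 RPM in intact fins, with no library apart. Of the 26, 17 met the rule in all 9 sets with 1 library left out.

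**Figure D5:**
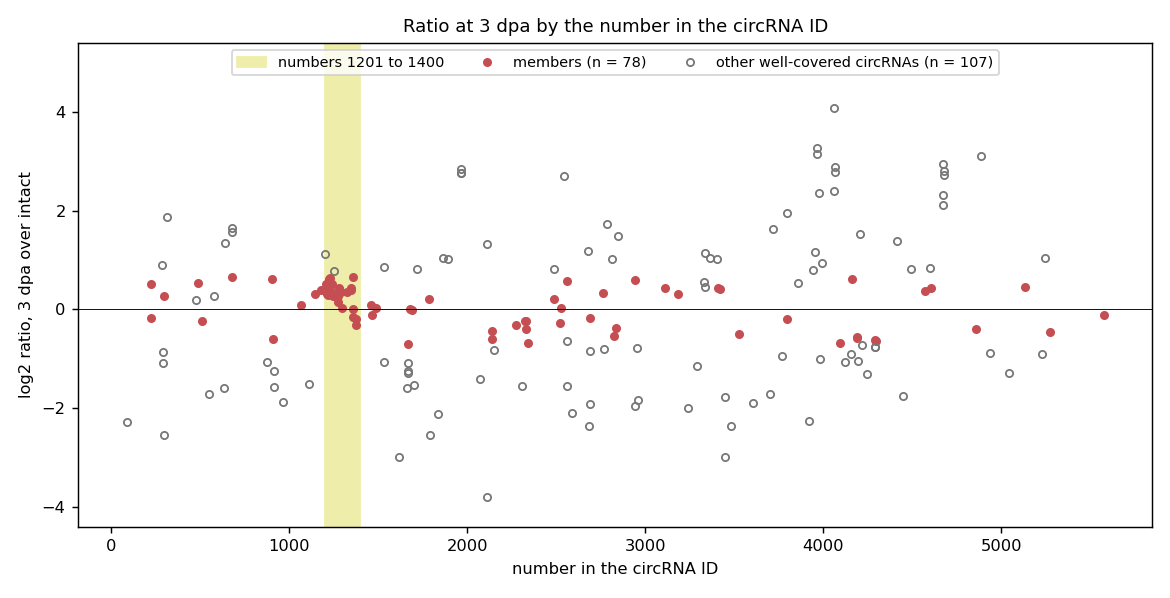
Each point is 1 of the 185 well-covered circRNAs, placed by the number in its ID (horizontal) and its log2 ratio of group mean RPM at 3 dpa over intact fin (vertical), with the numbers 1201 to 1400 shaded. In the shaded run 26 of 28 points are members and most lie between 0 and 0.7, while outside it the 52 members lie on both sides of 0 among other circRNAs that reach from -3.79 to 4.07.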

How the data were processed

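Total RNA of caudal fins was sequenced after fragmentation, random priming and dUTP second-strand synthesis, per the labels' protocols. cutadapt, TopHat2 (version 2.0.3.12), edgeR and RSEM are named, with the human build hg38, per the submitters' processing notes. The circRNA caller and the zebrafish build are not given in the sources used here. The circRNA table as deposited holds RPM values, and each library sums to 1000000. Dividing a column by its lowest value above 0 gave whole numbers (within 0.001) for 100% of values, and these were taken as reads. The mRNA and lncRNA tables were not used here.

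The members, their rule and the tests were chosen with earlier results of these data known. The test was limma 3.58.1 in R 4.3.3 (empirical Bayes, trend and robust settings) on log2(RPM + 1), with 9 libraries in 1 model, over 3213 circRNAs above 0 in at least 3 libraries, including all 78 members. Calls had a Benjamini-Hochberg adjusted p under 0.05. Intervals came from a limma fit over the 185 well-covered circRNAs, chosen after the data were seen, as were the comparison of reads between entries and the run of numbers. edgeR 4.0.16 and DESeq2 1.42.0 on recovered reads were alternatives, and Python 3.11.15 did the rest. Of these steps, only the limma fit was tested on simulated data.

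Named were the 12 most abundant members, the 5 with ratios nearest 0, with the smallest and largest within-group SD and with the largest ratio between regenerating groups, the 5 nearest each side of the ratio limit, the 3 nearest each side of the read limit and called members. Neighbours in number and novel_circ_001279 were named after their values were seen. Replicates of a group differed by more than counting error in every pair, so none was counted as a repeat sequencing of the same library. This comparison cannot tell libraries of different fish from separate libraries of the same RNA. The labels describe no molecular identifiers, so depth limits cover counting error only.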

Additional observations from a re-analysis of the deposited data

Results flagged for a closer look

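novel_circ_000909 was the member that limma called at 7 dpa against 3 dpa, a contrast of the same group means that chose the members, so its values are a description and no test. It had 4182, 7010 and 6698 RPM in intact fins, 4609, 2976 and 4308 RPM at 3 dpa and 6515, 5353 and 7403 RPM at 7 dpa. All 3 libraries of 7 dpa lay above those of 3 dpa, and intact fin overlapped with both. The limma log2 difference was 0.71, and the call held in 3 of 19 alternatives. It was lost with edgeR, DESeq2, TMM factors and the replicate block, among others. With 1 library left out it held without replicate 1 or replicate 3 of 3 dpa and was lost without any other.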

How the results depend on the processing

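The rule found 76 members with TMM factors, 75 with group means of log2(RPM + 1), 44 with a minimum of 20 reads, 77 with 1 entry of the near-identical pair left out and 71 to 80 without 1 library. TMM factors left 71 of the 78 in place. The members with at least 20 reads held 25.6%, 26.3% and 25.9% of the reads of the intact, 3 dpa and 7 dpa groups. With 1 entry of the near-identical pair left out, an alternative added after the data were seen, the share at 3 dpa was 28.7%. The share of all members ranged over sets without 1 library from 27.7% to 30.0% in intact fin, 29.5% to 30.0% at 3 dpa and 28.5% to 29.9% at 7 dpa. Their median within-group SD was 0.37 to 0.41 and their median standard error 0.36 to 0.43 without 1 library.

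Of all circRNAs, limma called 80 at 3 dpa against intact fin, 18 at 7 dpa against intact fin and 12 at 7 dpa against 3 dpa. The counts were 122 at 3 dpa and 19 between the times with a pseudocount of 1 read, 35, 6 and 0 without the robust setting (219 at an unadjusted p under 0.05 in the last), 11 and 11 against intact fin at 3 and 7 dpa with only the 2 groups compared, and 43 and 11 there with DESeq2. Between the times 25 were called with a minimum mean of 10 reads and 20 with the replicate block. Without 1 library the counts ran from 54 to 96, from 5 to 23 and from 4 to 26. Those beyond 1.5 times the count were 5 (T7dpa-2 left out) and 9 (T7dpa-3) at 7 dpa against intact fin, and between the times 22 (T3dpa-2), 26 (T3dpa-3), 7 (T7dpa-1) and 4 (T7dpa-2). The cause was not tested.

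Members called numbered 2, 1 and 1 in the 3 comparisons. At 3 dpa against intact fin the count was 4, all lower, with quantile normalization (39 higher and 39 lower of the 3213 tested). It was 1 without a filter (42 and 29 of 5578). It was 0 with a minimum mean of 10 reads (35 and 26 of 185), without the robust setting, with only the 2 groups compared, with edgeR and with DESeq2. Without 1 library it was 1 to 3. Lower among these were novel_circ_000909 without replicate 1 and novel_circ_001669 without replicate 2 of intact fin. Without replicate 2 of 3 dpa, novel_circ_004292 and novel_circ_004294 were lower. The other calls without 1 library were higher. With a pseudocount of 1 read the count at 3 dpa was 2, both lower (novel_circ_004292 and novel_circ_004294). At 7 dpa against intact fin it was 0 in each of these settings and with the replicate block, other than TMM factors (1), and 0 to 1 without 1 library. Between the times it was 3 with quantile normalization (9 higher and 2 lower of all), 0 with TMM factors and in the other settings, 1 with the replicate block (novel_circ_001669, with the call of novel_circ_000909 lost) and 0 to 1 without 1 library. Every call of a member was lost in some of these settings. Quantile normalization moved the median log2 difference of all tested circRNAs by 0.20 at 3 dpa against intact fin and by -0.12 between the times. The median of the members moved the opposite way and changed sign. It went from 0.18 to -0.09 at 3 dpa against intact fin and from -0.14 to 0.03 between the times.

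Same-numbered libraries deviated together only weakly (r from -0.0655 to 0.174 over well-covered circRNAs), so the replicate numbers were not taken as pairs. Unlike-numbered libraries had r from -0.177 to 0.140. Among the same-numbered, those of replicate 2 were all positive (0.113, 0.125 and 0.174), while those of replicates 1 and 3 had both signs. Whether same-numbered libraries shared a batch was not tested. With the replicate block limma called 83, 19 and 20 circRNAs and 2 (1 higher, 1 lower), 0 and 1 members. It lost the calls of novel_circ_001348 at 3 dpa, novel_circ_000682 at 7 dpa and novel_circ_000909 between the times. Of 528 values of 66 ratios of named members under alternatives that could move them, 490 stayed within 1 standard error. Leaving 1 library out of a group commonly moves a ratio by less than that, so this count is a description only. At 12070 to 16262 reads per library, counting error limits the members with under 20 reads most.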
